A study of Mus musculus with 4 samples.

Results

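Runx3 peaks were examined at the genes of the TNF ligand and receptor superfamilies in splenic CD4+ dendritic cells (DC). The members were the protein-coding genes of GENCODE M1 on mm9 whose symbols start with Tnfsf or Tnfrsf, without Tnfsf4 and Tnfsf9. This gave 29 genes of 22238 protein-coding symbols, 9 of them ligands and 20 of them receptors. A peak was assigned to a gene when its centre lay in the gene body or within 10 kb of any of its transcription start sites (TSS), and 20 of the 15121 peaks of the list were assigned in this way.

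The study used CD11chiMHCII+CD4+ DC sorted from spleens of wild-type C57BL/6 mice, and the labels give about 15 pooled mice for every sample. The strain of 1 control sample is labelled C57BL/7. Chromatin was precipitated with a polyclonal antibody to Runx3 made by the study's laboratory in 2 biological replicates, and fragmented chromatin that was not precipitated served as control in 2 samples. The peaks come from 1 call of both Runx3 samples against both controls, so no peak has a value per replicate and no spread between replicates can be given. Each peak carries a score written by MACS2, whose unit is not stated and which was used only to rank and compare peaks within the list. All comparisons below are descriptions without a test. The peaks hold no expression data, so the labelled cell type was not checked against marker genes, and ages of the mice are not given in the labels.

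Ligands of the TNF superfamily are trimeric proteins that are made as membrane proteins and can often be shed. Their receptors fall into those that bind TRAF adaptors through short cytoplasmic motifs and lead to NF-kappaB and MAP kinases, those that carry a death domain and can also recruit caspases, and decoys that bind ligand without signalling. DC both make such ligands for T and B cells and respond to them, among others through CD40, RANK and the lymphotoxin-beta receptor. Runx3 is a RUNX family transcription factor that binds DNA as a heterodimer with Cbfb, and its core site reads TGTGGT.

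Runx3 peaks were found at 13 of the 29 genes, or 44.8%, where 40.0% of all protein-coding genes had at least 1 peak under the same rule. The receptors held most of them: 10 of the 20 receptor genes (50.0%) and 3 of the 9 ligand genes (33.3%) had a peak. Among the receptors the count was 6 of 12 TRAF-binding receptors, 2 of 4 death domain receptors and 2 of 4 decoy receptors, with the orphan Tnfrsf26 counted among the decoys. At least 2 peaks were assigned to 6 members, all of them receptors, or 20.7%, against 16.0% of protein-coding genes. A peak centred within 1 kb of a TSS was present at 7 members (24.1%) and at 25.0% of protein-coding genes. A peak with a score of 23.2 or more, the upper quartile of the list, was present at 5 members (17.2%), all receptors, and at 14.0% of protein-coding genes. All of these shares lie close to the background, with differences of a few genes. Receptors are 20 of the 29 members. Of the 5 genes with a peak in the upper quartile, Tnfrsf9 and Tnfrsf25 were counted only through peaks nearer to a TSS of Park7 or Espn. Tnfrsf1a was counted only through a peak 5432 bp beyond its end.

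The share of genes with a peak differed with the length of the searched stretch, the gene body with 10 kb around each TSS. Its median was 30.5 kb for the members and 27.8 kb for all protein-coding genes. With all genes split by this length into 3 classes of equal size, 22.6% of genes had a peak in the class of short stretches, 46.3% in the middle class and 51.0% in the class of long ones. Of the members, 4 of 8 had a peak in the short class, 5 of 15 in the middle class and 4 of 6 in the long class.

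**Figure D1:**
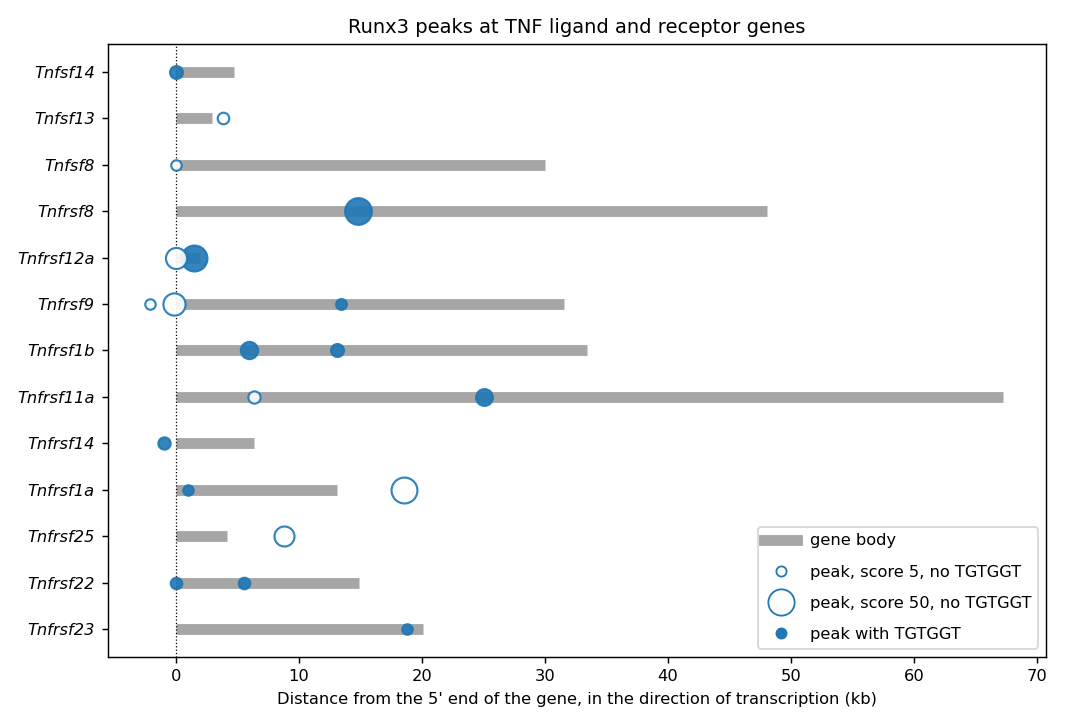
Runx3 peaks at the 13 TNF ligand and receptor genes with at least 1 peak, by distance from the gene's 5′ end in kb (x axis), 1 gene per row with ligands on top. Grey bars are gene bodies, the area of a circle grows with the peak score and filled circles hold TGTGGT. The largest circles lie inside Tnfrsf8 and Tnfrsf12a and downstream of Tnfrsf1a, and the circles of the 3 ligand genes are small.

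The 12 peaks with TGTGGT show where the RUNX hexamer sits in these loci. The sequence around the hexamer nearest to the centre is given for each, from NCBIM37 (mm9), 5′ to 3′ on the strand that reads TGTGGT, with the hexamer in capitals. Where the stretch touches an untranslated exon it was limited to 30 bases. The receptors with the stronger peaks come first.

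Tnfrsf8, intron, chr4:144890287-144890346, minus strand: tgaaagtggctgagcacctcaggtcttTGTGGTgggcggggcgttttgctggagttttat
Tnfrsf12a, last exon, chr17:23812849-23812878, plus strand: gccccaccccctTGTGGTtgaaagagtctg
Tnfrsf1b, stronger peak, chr4:144830732-144830791, minus strand: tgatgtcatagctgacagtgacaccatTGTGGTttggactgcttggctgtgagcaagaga
Tnfrsf11a, intron, chr1:107702338-107702397, minus strand: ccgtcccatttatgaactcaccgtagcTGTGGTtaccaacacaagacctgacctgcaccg
Tnfrsf1b, weaker peak, chr4:144823730-144823789, minus strand: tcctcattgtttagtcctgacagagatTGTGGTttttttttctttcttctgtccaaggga
Tnfsf14, first exon, chr17:57333551-57333580, minus strand: gtgttgggcaatTGTGGTttcctccggaga
Tnfrsf14, upstream, chr4:154303433-154303492, minus strand: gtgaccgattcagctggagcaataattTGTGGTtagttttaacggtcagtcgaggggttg
Tnfrsf22, intron, chr7:150830025-150830084, minus strand: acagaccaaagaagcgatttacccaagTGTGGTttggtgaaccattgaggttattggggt
Tnfrsf22, first exon, chr7:150835570-150835599, plus strand: gggaggagctgcTGTGGTggccacgcctct
Tnfrsf9, inner start site, chr4:150302106-150302135, plus strand: ctgtgtttgaccTGTGGTcttgtggagcgg
Tnfrsf1a, intron, chr6:125300295-125300354, plus strand: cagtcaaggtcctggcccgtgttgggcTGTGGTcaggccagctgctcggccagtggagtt
Tnfrsf23, exon, chr7:150852966-150852995, minus strand: cttgcctaggggTGTGGTcagtgccttttt

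In all, 21 TGTGGT hexamers lie in the 20 peaks, counted on both strands, 13 of them within 100 bp of the peak centre and 8 of them followed by a further T. The weak Tnfrsf23 peak alone holds 5 of the 21, and 4 of these lie in a tandem repeat described at the end. No count of copies is given for all peaks. The hexamer was present in 12 of the 20 peaks, or 60.0% (Wilson 95% interval 38.7% to 78.1%, counting error only), and in 54.0% of all peaks. In windows of the same width, moved by 10 kb to higher coordinates and overlapping no peak, it was present in 7 of 19 (36.8%), and in 30.9% of the windows of all peaks. Within the 200 bp around the centre the shares were 55.0% at the members and 41.8% in all peaks. Of the 8 member peaks with scores at or above the list median of 12.1, 50.0% held TGTGGT, so the stronger peaks did not hold it more often. With TGCGGT counted as well, 14 of the 20 peaks (70.0%) held a hexamer, and 66.5% of all peaks. The intervals of the member shares include the shares of all peaks. The hexamer TGACGT was reported by the study as the site of the DC factor zDC (Zbtb46), enriched in Runx3-bound regions. It was present in 1 of the 20 peaks, at Tnfrsf8, and in 11.0% of all peaks. In the moved windows TGACGT was present in 1 of 19 (5.26%), and in 4.19% of the windows of all peaks.

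Of the 20 peaks, 8 had their centre at most 1 kb from a start site of the gene, 6 further peaks in an intron, 2 in an exon and 4 outside the gene. The share near a TSS, 40.0%, was that of all pairs of a peak and a protein-coding gene, 40.8%. The 8 peaks near a TSS had scores from 5.36 to 34.7 with a median of 7.78. The 12 others ran from 5.36 to 51.5 with a median of 14.2, and the 2 ranges overlap over most of their length. For 4 of the 20 peaks the nearest protein-coding TSS belongs to a gene outside the family, and these are named below.

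Over all 20 peaks the score had a median of 9.16 (interval of the median from order statistics 7.06 to 27.6), against 12.1 for the whole list. Scores at or above the list median were found for 8 of them (40.0%), and for 50.0% of the list. Scores in the upper quartile were found for 6 (30.0%), and for 25.4% of the list. No score between 9.84 and 18.6 occurs, so that 12 weak peaks and 8 stronger ones lie on either side of the list median.

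**Figure D2:**
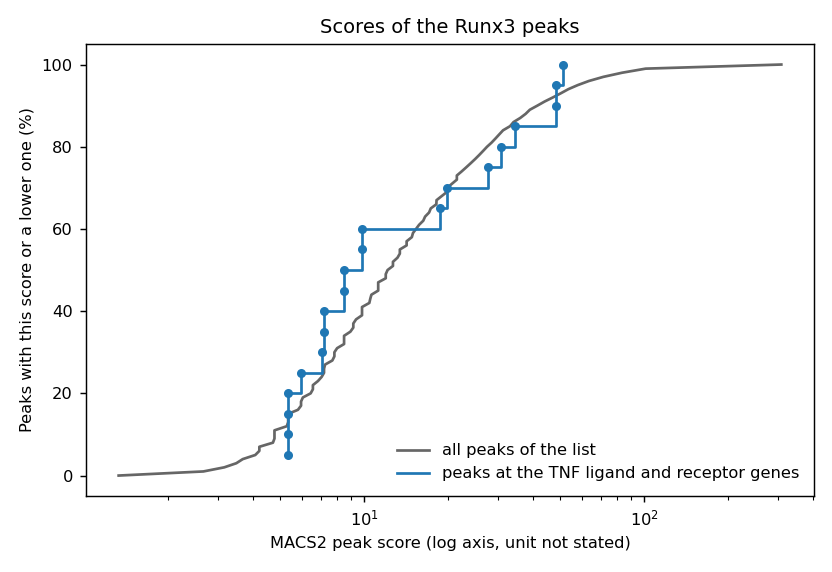
Share of peaks (y axis, %) with a given MACS2 score or a lower one (x axis, log scale), for the 20 peaks at the TNF ligand and receptor genes (blue) and all 15121 peaks (grey). The blue steps start at 5.36, run above the grey line to 9.84, are flat to 18.6 and end at 51.5, far below the highest score of the list, 309.

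The peaks of the 3 ligand genes all scored below the list median of 12.1. Tnfsf14 (LIGHT, which binds HVEM and the lymphotoxin-beta receptor; chr17:57328915-57333612, minus strand) had 1 peak, chr17:57333262-57333897, centred in exon 1, 33 bp from the TSS. Its score of 9.84 lies at percentile 41.0 of the list, and it holds TGTGGT 3 times, the nearest 13 bp from the centre. Tnfsf8 (CD30 ligand; chr4:63492342-63522381, minus strand) had 1 peak over its TSS, chr4:63522262-63522514, with a score of 5.36 at percentile 15.3. It was 253 bp wide, the narrowest width of the list, and holds neither TGTGGT nor TGCGGT. Tnfsf13 (APRIL, a survival factor for plasma cells; chr11:69496348-69499286, minus strand) was counted through a peak that covers the promoter of its neighbour: chr11:69495310-69495610 is centred 888 bp beyond the end of Tnfsf13 and 12 bp from a TSS of Senp3. It scored 7.20, holds no RUNX hexamer and is also assigned to Eif4a1 and Senp3.

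No peak was assigned to Tnfsf10 (TRAIL), Tnfsf11 (RANKL), Tnfsf12 (TWEAK), Tnfsf13b (BAFF), Tnfsf15 (TL1A) or Tnfsf18 (GITR ligand). For Tnfsf12 the Senp3 peak described above came nearest, 13563 bp from its start. For Tnfsf13b it was a peak over the promoter of Lig4, 30516 bp away. The distance was 65866 bp for Tnfsf18, 76670 bp for Tnfsf15, 98222 bp for Tnfsf10 and 228358 bp for Tnfsf11. A gene without a peak may still be bound below what these libraries could show, since their depth was not analysed here.

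Of the 12 TRAF-binding receptors, 6 had a peak, and their scores ran from 5.36 to 51.5. Tnfrsf8 (CD30, a receptor of activated lymphocytes; chr4:144857040-144905067, minus strand) had a single peak, chr4:144889954-144890593, in intron 2 and 14777 bp downstream of the nearest TSS. Its score of 51.5 was the highest among the members and ranks 986 in the list, at percentile 93.5. It holds TGTGGT 2 times, 43 and 252 bp from the centre, and TGACGT 213 bp from the centre. Its central 200 bp on the plus strand are shown because they carry the highest score, with the reverse complement of TGTGGT in capitals.

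Tnfrsf8 peak centre, chr4:144890173-144890372, plus strand: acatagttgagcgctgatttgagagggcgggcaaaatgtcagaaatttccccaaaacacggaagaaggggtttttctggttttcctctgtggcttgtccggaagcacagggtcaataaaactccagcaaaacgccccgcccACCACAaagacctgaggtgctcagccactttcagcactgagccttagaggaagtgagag

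Tnfrsf1b (TNFR2, the TNF receptor without a death domain; chr4:144803366-144836773, minus strand) lies near Tnfrsf8 on chromosome 4 and had 2 peaks, both in intron 1. The peak chr4:144830504-144831122, 5960 bp downstream of the TSS, scored 19.8. The peak chr4:144823325-144824031, 13095 bp downstream, scored 9.84 and was the widest at the members, with 707 bp. Each holds TGTGGT once, 51 and 81 bp from its centre, and both copies are followed by TT. Neither Tnfrsf8 nor Tnfrsf1b had a peak within 1 kb of a TSS.

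Tnfrsf12a (Fn14, the TWEAK receptor; chr17:23812414-23814416, minus strand) had 2 strong peaks in a gene of 2003 bp. The peak chr17:23814171-23814646 is centred 8 bp from the TSS, scored 31.0 at percentile 83.4, and holds no RUNX hexamer. The peak chr17:23812630-23813233 is centred in exon 4, the last one, scored 48.3 at percentile 92.5 and holds TGTGGT 2 times, both followed by T. The locus is dense, and both peaks also fall within the rule for Cldn6, Cldn9, Hcfc1r1 and Thoc6, but the nearest TSS is that of Tnfrsf12a.

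Tnfrsf9 (4-1BB, a costimulatory receptor; chr4:150288671-150320211, plus strand) had 3 peaks, the most of any member. The strongest, chr4:150288203-150288844, scored 34.7 and lies 148 bp upstream of the Tnfrsf9 TSS but 23 bp from a TSS of Park7, which starts beside it. It holds no TGTGGT, and 1 TGCGGT at 227 bp from its centre. A second peak, chr4:150286424-150286766, scored 5.36, is also nearer to Park7 and holds neither hexamer. The third, chr4:150301843-150302284, lies inside the gene, 36 bp from the TSS of a shorter Tnfrsf9 transcript, scored 5.96 and holds TGTGGT 57 bp from its centre. It is the only one of the 3 that is not assigned to Park7 as well.

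Tnfrsf11a (RANK, the receptor of RANKL, which prolongs the life of DC; chr1:107677300-107744558, plus strand) had 2 peaks in intron 1. The peak chr1:107702147-107702506, 25026 bp downstream of the TSS, scored 18.6 and holds both TGTGGT and TGCGGT, 41 and 12 bp from its centre. The peak chr1:107683543-107683858, at 6400 bp, scored 8.49 and holds neither. Tnfrsf14 (HVEM, the receptor of LIGHT; chr4:154296319-154302672, minus strand) had 1 peak, chr4:154303387-154303834, centred 938 bp upstream of a TSS, with a score of 8.49 and TGTGGT 147 bp from the centre.

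The other TRAF-binding receptors had no peak. They are Tnfrsf4 (OX40) and Tnfrsf18 (GITR), neighbours on chromosome 4, the receptors of BAFF or APRIL Tnfrsf13b (TACI), Tnfrsf13c (BAFF receptor) and Tnfrsf17 (BCMA), and Tnfrsf19 (TROY). The nearest peak to both Tnfrsf4 and Tnfrsf18, 21439 and 33760 bp away, lies 274 bp from a TSS of B3galt6 and scored 11.2. For Tnfrsf17 it lay 59494 bp away, 7 bp from a TSS of Gspt1, with a score of 49.4. For Tnfrsf13c it lay 25873 bp away with a score of 7.20, for Tnfrsf13b 31921 bp with a score of 4.20, and for Tnfrsf19 126008 bp with a score of 18.1.

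Of the death domain receptors, Tnfrsf1a (TNFR1, the TNF receptor that most cell types carry; chr6:125299380-125312502, plus strand) had 2 peaks. The peak chr6:125300202-125300561 lies in intron 1, 590 bp downstream of the nearest TSS, scored 5.36 and holds TGTGGT 56 bp from the centre. The other, chr6:125317668-125318200, lies 5432 bp beyond the end of the gene, scored 48.3 and holds neither TGTGGT nor TGCGGT. It is assigned to Plekhg6 as well, but the nearest TSS, at 7489 bp, belongs to a Tnfrsf1a transcript. Its central 200 bp are shown as the strongest stretch at the members without a RUNX hexamer.

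Tnfrsf1a downstream peak centre, chr6:125317834-125318033, plus strand: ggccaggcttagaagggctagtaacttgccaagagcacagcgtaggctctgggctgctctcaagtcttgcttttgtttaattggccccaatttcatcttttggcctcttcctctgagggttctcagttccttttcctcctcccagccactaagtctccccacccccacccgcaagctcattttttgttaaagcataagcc

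Tnfrsf25 (DR3, the receptor of TL1A; chr4:151490043-151494228, plus strand) was counted through chr4:151498490-151499138, a peak with a score of 27.6 that lies 4586 bp beyond the gene and nearer to a TSS of Espn, at 4220 bp. It holds no TGTGGT, and a TGCGGT 8 bp from its centre, which is shown in capitals as the hexamer closest to a peak centre.

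Tnfrsf25 downstream, chr4:151498793-151498852, plus strand: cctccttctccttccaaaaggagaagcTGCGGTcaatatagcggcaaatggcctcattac

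Tnfrsf10b (DR5, the TRAIL receptor of the mouse) and Tnfrsf21 (DR6) had no peak, and the nearest peak centres lay 34832 and 72910 bp from their TSS, with scores of 10.5 and 6.57.

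Tnfrsf22, Tnfrsf23 and Tnfrsf26 are neighbours on chromosome 7, and the peaks there were weak. Tnfrsf22 (chr7:150820711-150835566, minus strand, annotated under 2 gene identifiers) had a peak over its TSS, chr7:150835370-150835662, with a score of 7.06, and 1 in intron 2, chr7:150829839-150830190, with a score of 7.20. Tnfrsf23 (chr7:150851714-150871777, minus strand) had 1 peak, chr7:150852721-150853167, 18833 bp downstream of its TSS and nearer to a TSS of Tnfrsf22, at 17378 bp, with a score of 5.36. Both genes encode decoy receptors for TRAIL, and all 3 peaks hold TGTGGT. No peak was assigned to Tnfrsf26, where the nearest centre lay 16156 bp from the TSS, nor to Tnfrsf11b (osteoprotegerin, the secreted decoy for RANKL), whose nearest peak lay 720367 bp away.

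Ligand and receptor were both bound in 2 of 15 known pairs within the family, Tnfsf8 with Tnfrsf8 and Tnfsf14 with Tnfrsf14. In the CD30 pair the receptor had the highest score of the 29 genes, 51.5, and the ligand one of 5.36. In the LIGHT and HVEM pair both peaks were weak, 9.84 and 8.49. In 5 pairs the receptor alone had a peak, as for RANKL with RANK, TWEAK with Fn14 and TL1A with DR3. The DR3 peak is the one that lies beyond Tnfrsf25 and nearer to a TSS of Espn. In 2 pairs the ligand alone had one, both through the Senp3 promoter peak at Tnfsf13. In 6 pairs neither had a peak, among them BAFF with each of its 3 receptors, TRAIL with DR5 and GITR ligand with GITR. These pairs share genes and are not independent of each other. Under the same rule 40.0% of all protein-coding genes had a peak, and no count of pairs of other genes is given. Whether pairs are bound together more often than single genes would give was not tested.

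The superfamily genes without a Tnfsf or Tnfrsf symbol and the proteins that carry the signal inside the cell were taken from a list of 47 genes, all of which the annotation holds. Of them, 29 (61.7%) had a peak, against 40.0% of protein-coding genes. The ligands and receptors of the list had a peak in 5 of 15 genes (33.3%), and the genes whose products act inside the cell in 24 of 32 (75.0%). By class, a peak was present at 2 of 7 ligands, 3 of 8 receptors, 6 of 6 TRAF adaptors, 2 of 7 death domain adaptors and caspases, 9 of 12 kinases and ubiquitin ligases, and 7 of 7 feedback inhibitors. Some of these peaks were weak, such as that of the feedback inhibitor Tank, 3.39 at percentile 2.98. With scores in the upper quartile the counts were, in the same order, 0 of 7, 1 of 8, 4 of 6, 0 of 7, 7 of 12 and 3 of 7. The share of all protein-coding genes was then 14.0%. The strongest peak of a bound gene was nearest to its own TSS for 22 of the 29 genes. These are counts of hand-written lists without a test. The lists were chosen with earlier results of these data known, so they cannot be taken as independent of the peaks. The length or promoter type of the listed genes was not compared.

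**Figure D3:**
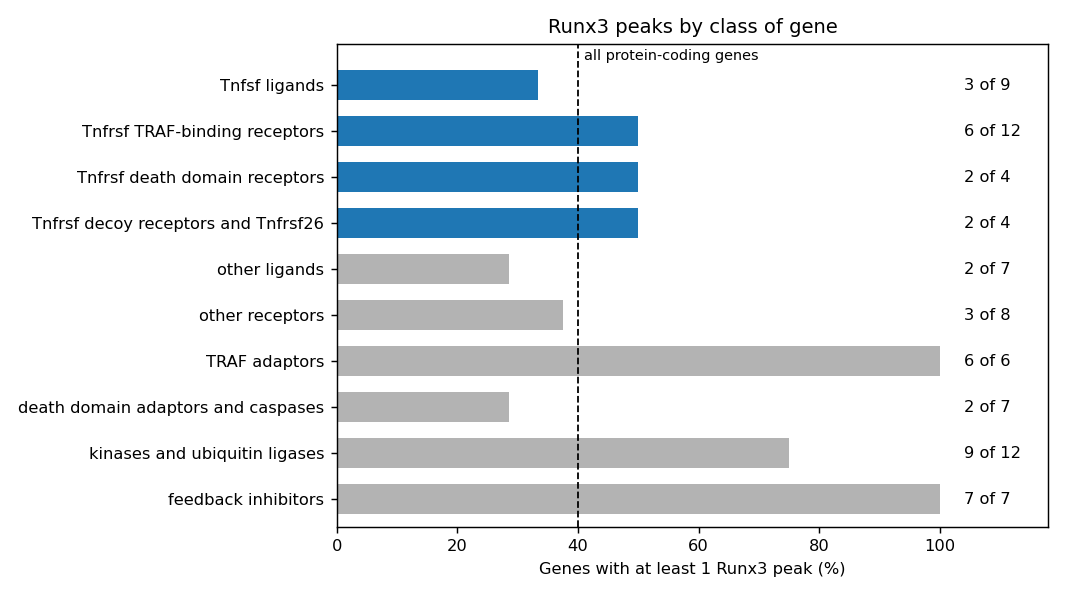
Share of genes with at least 1 Runx3 peak (x axis, %) by class, with the number of genes at the right. Blue bars are the Tnfsf and Tnfrsf genes, grey bars the other pathway genes, and the dashed line is the 40.0% of all protein-coding genes. The TRAF adaptors (6 of 6), the feedback inhibitors (7 of 7) and the kinases and ubiquitin ligases (9 of 12) reach past the line. The Tnfrsf receptor classes, each at 50.0%, also pass it. The Tnfsf ligands (3 of 9), other ligands (2 of 7), other receptors (3 of 8) and death domain adaptors and caspases (2 of 7) end before it. The lists were chosen with earlier results of these data known.

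At the other ligands, Tnf (chr17:35336326-35338952) and Ltb (lymphotoxin beta; chr17:35331384-35333265) were counted through a common peak, chr17:35329874-35330278, with a score of 21.3. It lies 1308 bp upstream of the Ltb TSS and 8873 bp downstream of that of Tnf, and Ltb had 2 further peaks with scores of 15.0 and 11.0. Lta, Fasl, Cd70, Cd40lg and Eda had none. At the other receptors the strongest peaks belonged to Relt, with 68.5 at 193 bp from a TSS and 65.8 for a second peak, and to Cd40, the receptor through which T cells license DC, with 14.2 at 188 bp upstream of its TSS. Cd27 had a peak of 7.84 that is nearer to Tapbpl, and Fas, Ltbr, Ngfr, Edar and Eda2r had none.

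Inside the cell, Traf1 had a peak with a score of 70.4, 1638 bp upstream of its TSS, with TGTGGT 3 times, and Traf2 had one of 40.1 over its TSS without the hexamer. The inhibitors of apoptosis Birc2 and Birc3, ubiquitin ligases that bind TRAF2, had the highest scores among these 47 genes. That of Birc3, 3 bp from a TSS, was 90.7, and that of Birc2, 1769 bp upstream of its TSS and nearer to a TSS of C330006D17Rik, was 95.9. Neither peak holds TGTGGT. In the class counted as death domain adaptors and caspases, Tradd had a peak of 17.3 and Casp8 one of 8.49. Fadd, Ripk1, Ripk3, Cflar and Mlkl, counted in the same class, had none. Among the feedback inhibitors the strongest peaks were those of Fam105b, the linear-ubiquitin protease OTULIN, with 40.1, and Tnip3, with 34.2, both in an intron and both with TGTGGT 2 times.

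**Figure D4:**
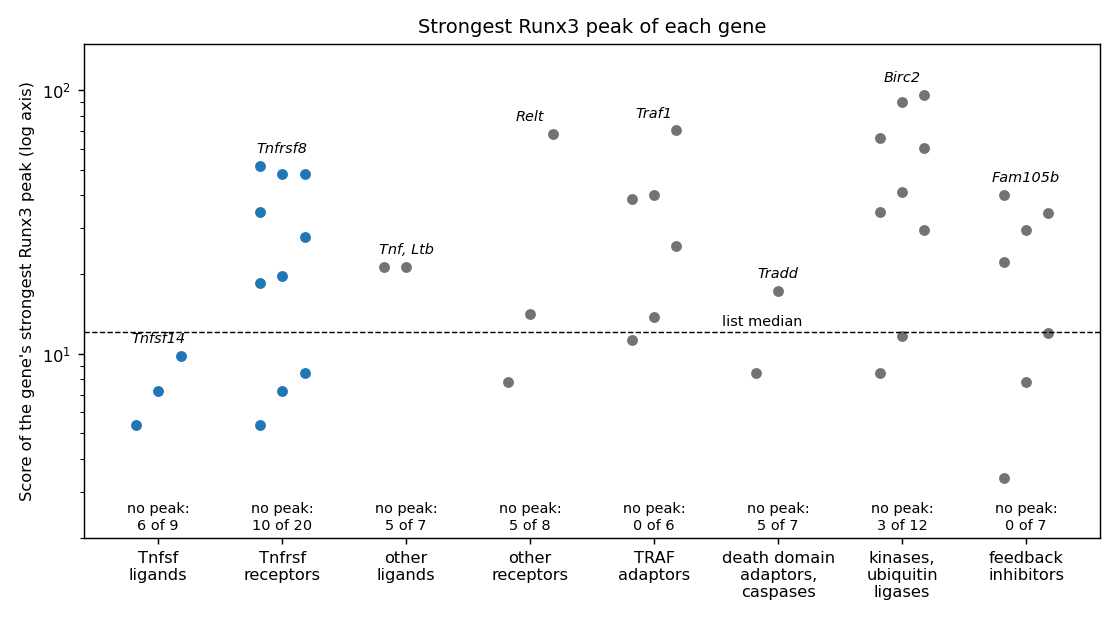
Score of the strongest Runx3 peak of each gene with a peak (y axis, log scale), by class, with the number of genes without a peak at the bottom. The name is that of the highest gene or genes of each class and the dashed line is the list median of 12.1. All 3 Tnfsf ligands lie below the line and 7 of the 10 bound Tnfrsf receptors above it, with Tnfrsf8 highest at 51.5. The strongest peaks of Tnfrsf9 and Tnfrsf25 are nearer to a TSS of Park7 and of Espn. A peak at or above the list median was present at 24.1% of all members and at 25.0% of all protein-coding genes.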

How the data were processed

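Reads of 50 bp were placed on mm9 by the authors with bowtie, keeping unique alignments, and MACS2 gave the peaks. The labels also name CASAVA 1.8. Versions of bowtie and MACS2 and the threshold are not given in the sources used here. The deposited peak list holds a score for each peak, written by MACS2 in 1 call on the pooled samples. Unique alignment removes reads from near-identical copies. Depth per sample was not analysed here.

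Positions were counted from 1 on mm9, with genes from GENCODE M1 and sequence from NCBIM37, the same assembly. Gene records with the same symbol were joined, so that 22380 records gave 22238 genes. Peaks were placed by their centre and numbered exons and introns are those of the longest protein-coding transcript. Hexamers were searched on both strands. Every member is named; the 4 ligand and 6 receptor genes with the highest peaks, and 2 genes of each class of the pathway list, were to be described in full, and only 3 ligand genes had a peak. The members, lists and rules were chosen with earlier results of these data known. Intervals of shares are Wilson intervals. The assignment and the hexamer search were tested on simulated data with known answers. Python 3.11.15, numpy 2.4.6, scipy 1.17.1, pysam 0.24.0 and matplotlib 3.10.9 were used.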

Additional observations from a re-analysis of the deposited data

How the results depend on the processing

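With peaks at or above the list median, 7 members (24.1%) had a peak and 25.0% of protein-coding genes did; 0 ligand genes were left, and 8 peaks with a median of 32.8. At or above the upper quartile 5 members (17.2%) had one, all receptors (5 genes), with 0 ligand genes and 6 peaks with a median of 41.5, against 14.0% of protein-coding genes; 15 genes of the pathway list kept a peak. With 5 kb around the TSS 41.4% of members and 35.9% of protein-coding genes had a peak, with 20 kb, which added Tnfrsf26 and Tnfsf12, 51.7% and 47.0%. With the gene body alone it was 31.0% and 23.2%, with 1 ligand gene and 13 peaks. With the 10 kb around the TSS alone it was 37.9% and 36.7%, with 1 TSS per gene 44.8% and 39.3%, and with each peak given to the nearest protein-coding TSS 41.4% and 36.7%. Any base of the peak and joined peaks left the members with a peak at 13. Among these settings the member share was below that of all protein-coding genes for peaks at or above the list median, and it was also lower for peaks within 1 kb of a TSS (24.1% against 25.0%). TGTGGTT, chosen after seeing the data, was in 35.0% of the 20 peaks and 27.7% of all peaks, and windows 10 kb downstream held TGTGGT in 36.8%. No paired analysis was possible because the list holds no value per replicate. Depth limits which regions were called, and the score has no stated unit.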

Other observations

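The peak at Tnfrsf23 holds TGTGGT 5 times, the most of the 20 peaks, at a score of 5.36. Of these copies 4 begin exactly 52 bp apart, and the 52 bp around neighbouring copies match at 47 to 49 positions. These 4 hexamers thus lie in a tandem repeat. The remaining copy begins 156 bp from the nearest of them, a multiple of the same spacing, and its surroundings were not compared.

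Tnfrsf22 and Tnfrsf23 share sequence. Of all stretches of 50 bp, the read length, 20.8% of those in Tnfrsf22 and 15.4% of those in Tnfrsf23 occur without a mismatch in another of the 3 genes of this cluster, and 0% of those in Tnfrsf26. For the intron peak of Tnfrsf22 the share was 37.3%, for the peak over its TSS 0% and for the peak of Tnfrsf23 3.52%. The alignments kept were unique ones, and the part of shared sequence in these scores was not tested.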
